A study of Mus musculus with 4 samples.

Results

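The genes described here encode the non-collagen glycoproteins of the extracellular matrix: fibronectin, vitronectin and versican, tenascin C and the thrombospondins, the fibulins, fibrillin and elastin, the latent TGF-beta binding proteins, the matrilins and their relatives. They were chosen by name as a list of 37 genes, and each was read from its single-symbol probe set of highest mean signal. Of these, 35 were measured among the 19938 genes of the value table, each by 1 probe set. Fbn1 and Efemp2 are not analysed here. A total of 32 passed the filter on low signal, against 13956 genes in all.

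The cells were mouse cancer cell lines 365 and 167, labelled as soft tissue MRT. Both are Smarcb1 deficient and p53 null, come from Smarcb1-heterozygous p53-/- mice and have the background C57BL6/SV129J, so all 4 arrays share the labelled deficiency in p53 and in the cells' own Smarcb1. Smarcb1 belongs to the core of SWI/SNF, a complex that moves nucleosomes. In each line pMIG with Smarcb1 was set against empty pMIG, a retroviral vector, and total RNA was taken 3 days after infection, a time meant to favour direct targets. Each line and vector has 1 array, no repeat culture is named, and the share of infected cells is not analysed here.

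Matrix glycoproteins are secreted multidomain proteins that cells assemble into fibrils, microfibrils and pericellular coats. Fibronectin and fibrillin form the scaffolds, matricellular proteins such as tenascin C and the thrombospondins alter how cells attach to them, and latent TGF-beta binding proteins store the growth factor in the matrix. Cells of mesenchymal origin are their main producers in soft tissue.

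Smarcb1 signal, as log2 RMA signal throughout, was 9.61 with Smarcb1 and 6.01 with empty vector in line 365, and 7.83 with Smarcb1 and 4.61 with empty vector in line 167. It rose by 3.41 ± 0.20 on the log2 scale, or 10.6-fold (moderated SE, limma adjusted p = 0.0371), so the vector labels match the transcript in both lines. With empty vector the Smarcb1 probe set was still above the filter level of 4.27 in both lines, by more in line 365, so the labelled deficiency is not seen as an absent signal. Arrays of the same line correlated, across genes that are no replicates of each other, at r = 0.970 in line 365 and r = 0.959 in line 167. The mesenchymal marker Vim lay between 13.27 and 13.53 on the 4 arrays. Of 7 measured leukocyte and macrophage markers 5, Ptprc among them, lay below the filter level on all arrays. The other 2, Cd68 and Csf1r, lay above it on all arrays. Cd68 was at 8.18 with Smarcb1 and 9.95 with empty vector in line 365, and at 8.69 with Smarcb1 and 9.32 with empty vector in line 167 (limma unadjusted p = 0.0106, adjusted p = 0.273). Csf1r went the other way (limma adjusted p = 0.587). It was at 5.19 with Smarcb1 and 4.73 with empty vector in line 365, and at 4.80 and 4.70 in line 167. The part of these 2 markers in the results was not tested. Of 6 epithelial markers 5 lay above the filter level on all arrays, with Krt8 highest at 5.63 to 6.04, and Epcam lay below it on all.

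Upstream windows of Tnc, Fbln2, Ecm1 and Efemp1 are shown side by side, and Fn1 had no window among the RefSeq windows used. Tnc, Fbln2 and Ecm1 were higher with Smarcb1 in both lines, and Efemp1 differed most between the lines. Each window holds the 250 bases before the annotated transcription start, from RefSeq on GRCm38.p6, read along the gene. They lie at chr4:64047016-64047265 (minus strand), chr6:91212514-91212763 (plus), chr3:95739570-95739819 (minus) and chr11:28852955-28853204 (plus). Capitals mark the AP-1 motif TGANTCA, the TATA box as TATAAA and the GC box as GGGCGG, each on either strand. For Tnc, the more upstream of 2 annotated starts, 79 bases apart, was used.
Tnc: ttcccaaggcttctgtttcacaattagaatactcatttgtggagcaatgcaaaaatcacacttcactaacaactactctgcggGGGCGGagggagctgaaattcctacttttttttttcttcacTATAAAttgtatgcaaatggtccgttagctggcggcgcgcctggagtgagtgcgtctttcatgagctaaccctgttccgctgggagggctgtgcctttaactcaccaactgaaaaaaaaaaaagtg
Fbln2: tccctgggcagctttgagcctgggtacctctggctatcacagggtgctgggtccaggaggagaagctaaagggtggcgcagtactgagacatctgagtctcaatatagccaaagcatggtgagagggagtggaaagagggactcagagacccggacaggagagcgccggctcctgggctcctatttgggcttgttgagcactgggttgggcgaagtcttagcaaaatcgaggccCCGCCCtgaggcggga
Ecm1: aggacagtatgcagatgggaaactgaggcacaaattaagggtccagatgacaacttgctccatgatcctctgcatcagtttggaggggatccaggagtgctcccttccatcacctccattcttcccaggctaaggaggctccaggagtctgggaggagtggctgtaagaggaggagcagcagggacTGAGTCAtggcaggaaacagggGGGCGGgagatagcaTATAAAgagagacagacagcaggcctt
Efemp1: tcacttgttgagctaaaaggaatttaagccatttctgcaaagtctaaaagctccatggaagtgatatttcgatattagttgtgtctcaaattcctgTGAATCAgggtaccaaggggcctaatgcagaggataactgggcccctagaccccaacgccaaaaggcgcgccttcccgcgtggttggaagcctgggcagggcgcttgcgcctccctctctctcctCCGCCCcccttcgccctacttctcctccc

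Among these promoters, Ecm1 held an AP-1 motif at bases -64 to -58, a GC box and a TATA box at -27 to -22 from the start. Efemp1 held an AP-1 motif at -154 to -148 and a GC box. Tnc held the letters of a TATA box at -126 to -121 from the start used and a GC box, and Fbln2 held a GC box. In the RefSeq table, 25 of the 37 genes had 37 windows between them, some of which overlap. The AP-1 motif was in 2 of these windows (5.41%), against 6.75% of all 32851 windows. The TATA box was in 6 (16.2%), against 12.4%, and the GC box in 22 (59.5%) from 17 genes, against 32.7%. The CCAAT box, searched by those 5 letters, was in 9 (24.3%), against 33.8%. The TEAD motif GGAATG was in 5 (13.5%), against 12.6%. The GC content of the windows had a median of 58.8% for the matrix glycoprotein genes and 52.4% for all. These matches describe letters in the windows and not binding.

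With Smarcb1, 7 matrix glycoprotein genes were at least 2-fold higher in both lines: Fn1, Tnc, Fbln2, Ecm1, Emilin2, Matn2 and Vcan. None was at least 2-fold lower in both. That is 7 of 32 tested members (21.9%), against 1.33% of all tested genes for higher and 0 members against 0.186% for lower. The limma test of the vector, with the line in the model, called 0 members higher, against 0.0645% of all tested genes, and 0 lower, against 0% of all tested genes. At an unadjusted p below 0.05 the same fit held 12 members higher and 1 lower, that is 40.6% of members, against 11.6% of tested genes. Tnc came nearest, with limma adjusted p = 0.0578. The list was chosen with earlier results of these arrays known, so the counts describe it and are not independent support.

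More members passed 2-fold in line 167 than in line 365. In line 365, 8 members were at least 2-fold higher (2.84% of all tested genes were) and 1 was lower (1.17% of all tested genes). In line 167, 13 were at least 2-fold higher (3.4% of all tested genes) and 0 lower (1.49% of all tested genes). On the log2 scale, the 32 tested members had a median difference between vectors of -0.04 in line 365 and 0.66 in line 167, against -0.0059 and -0.06 for all tested genes. In line 365 the higher genes were thus a subset of a list centred near 0. A single line has 1 array per vector, so these counts carry no test. Near the 2-fold limit, Vcan (1.02) lay inside and Ltbp4 (0.9995) outside in line 365, and Ltbp3 (1.05) lay inside and Fbln1 (0.99) outside in line 167.

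**Figure D1:**
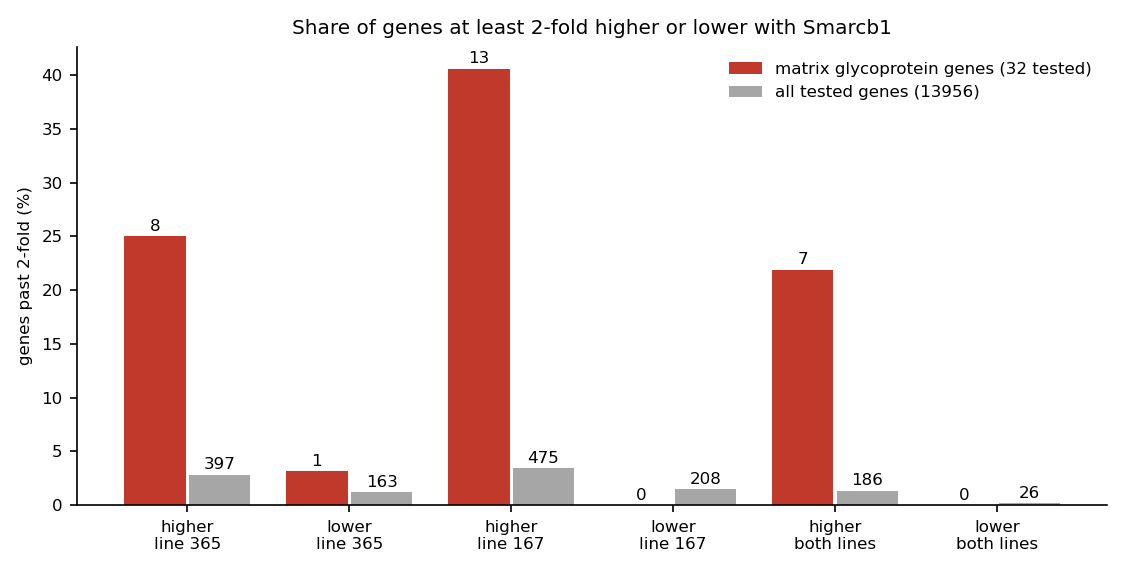
Percentage of genes at least 2-fold higher or lower with Smarcb1, in line 365, in line 167 and in both lines, for the 32 tested matrix glycoprotein genes (red bars) and for all 13956 tested genes (grey bars), with the number of genes above each bar. The red bar for higher genes reaches 25.0% in line 365 and 40.6% in line 167, and the lower bars hold 1 member and 0 members.

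Among the adhesive and provisional matrix genes, 3 of 5 were at least 2-fold higher in both lines. Fn1 encodes fibronectin, the integrin ligand that cells pull into fibrils. Its signal was 9.41 with Smarcb1 and 6.92 with empty vector in line 365, and 11.82 with Smarcb1 and 7.93 with empty vector in line 167. Both Smarcb1 arrays lay above both empty-vector arrays, a description given here and below without its share over all tested genes. The difference was 5.60-fold in line 365 and 14.9-fold in line 167, with a mean of 3.19 ± 0.35 on the log2 scale (moderated SE, limma adjusted p = 0.0865).

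Ecm1, a secreted glycoprotein that binds other matrix proteins, had a signal of 10.03 with Smarcb1 and 8.23 with empty vector in line 365, and 9.25 with Smarcb1 and 7.86 with empty vector in line 167. The vectors did not overlap, as in Vcan, Emilin2 and other members, and the mean difference was 1.60 ± 0.17 (moderated SE, limma adjusted p = 0.0846). Vcan encodes versican, a large hyaluronan-binding proteoglycan. Its signal was 7.27 with Smarcb1 and 6.25 with empty vector in line 365, and 7.70 with Smarcb1 and 6.35 with empty vector in line 167. It was 2.03-fold higher in line 365 and 2.54-fold higher in line 167 (limma adjusted p = 0.151).

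Crispld2, which encodes a secreted protein with a CAP domain, was at 5.39 with Smarcb1 and 4.84 with empty vector in line 365, and at 5.79 with Smarcb1 and 4.64 with empty vector in line 167. It was past 2-fold only in line 167. Vtn, the gene of the plasma adhesion protein vitronectin, stayed between 4.43 and 4.60 on the 4 arrays, just above the filter level.

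Of the 13 matricellular genes, Tnc was the 1 member past 2-fold in both lines. Tenascin C is a hexameric glycoprotein of remodelling and embryonic matrix that modulates attachment to fibronectin. Its signal was 7.64 with Smarcb1 and 5.16 with empty vector in line 365, and 6.92 with Smarcb1 and 3.99 with empty vector in line 167. Both Smarcb1 arrays lay well above both controls, and the line 167 control lay below the filter level, where signal above background was not shown. The mean difference was 2.70 ± 0.21 on the log2 scale, or 6.51-fold. Its p ranked 17 of 13956 in the limma fit (adjusted p = 0.0578).

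Thbs1 and Thbs2 encode the trimeric thrombospondins, which bind CD47 and restrain blood vessel growth. Thbs1 was at 10.30 with Smarcb1 and 10.21 with empty vector in line 365, and at 12.24 with Smarcb1 and 9.83 with empty vector in line 167. Thbs2 was at 4.77 with Smarcb1 and 4.86 with empty vector in line 365, and at 8.21 with Smarcb1 and 4.74 with empty vector in line 167. For both genes the Smarcb1 array of line 167 stood apart from the other 3. Thbs2 was 11.1-fold higher there, and its mean difference over both lines was 1.69 ± 0.83 (moderated SE, limma adjusted p = 0.526).

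Thbs3 and Thbs4 encode the pentameric thrombospondins. Thbs3 was at 7.31 with Smarcb1 and 7.96 with empty vector in line 365, and at 8.18 with Smarcb1 and 8.49 with empty vector in line 167, and was the 1 member lower at an unadjusted p below 0.05 (limma adjusted p = 0.421). Thbs4 stayed between 4.66 and 4.90 on the 4 arrays.

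Tgfbi encodes an adhesion protein with fasciclin domains that was named for its induction by TGF-beta. It was at 6.10 with Smarcb1 and 5.14 with empty vector in line 365, and at 8.11 with Smarcb1 and 5.27 with empty vector in line 167. The vectors did not overlap, with 7.17-fold in line 167 and 1.95-fold, just under the 2-fold limit, in line 365 (limma adjusted p = 0.278). Postn, the gene of the related protein periostin, reached 5.04 only in line 167 with Smarcb1 and lay below the filter level on the other 3 arrays, so it passed the filter through that array.

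Sparc, which encodes a collagen-binding matricellular protein, differed by less than 2-fold in each line, at 12.01 with Smarcb1 and 12.32 with empty vector in line 365, and at 12.14 with Smarcb1 and 11.97 with empty vector in line 167. The sparc-related genes Smoc1 and Smoc2 and the spondin genes Spon1 and Spon2 also differed by less than 2-fold in each line. Sparcl1 did not pass the filter.

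**Figure D2:**
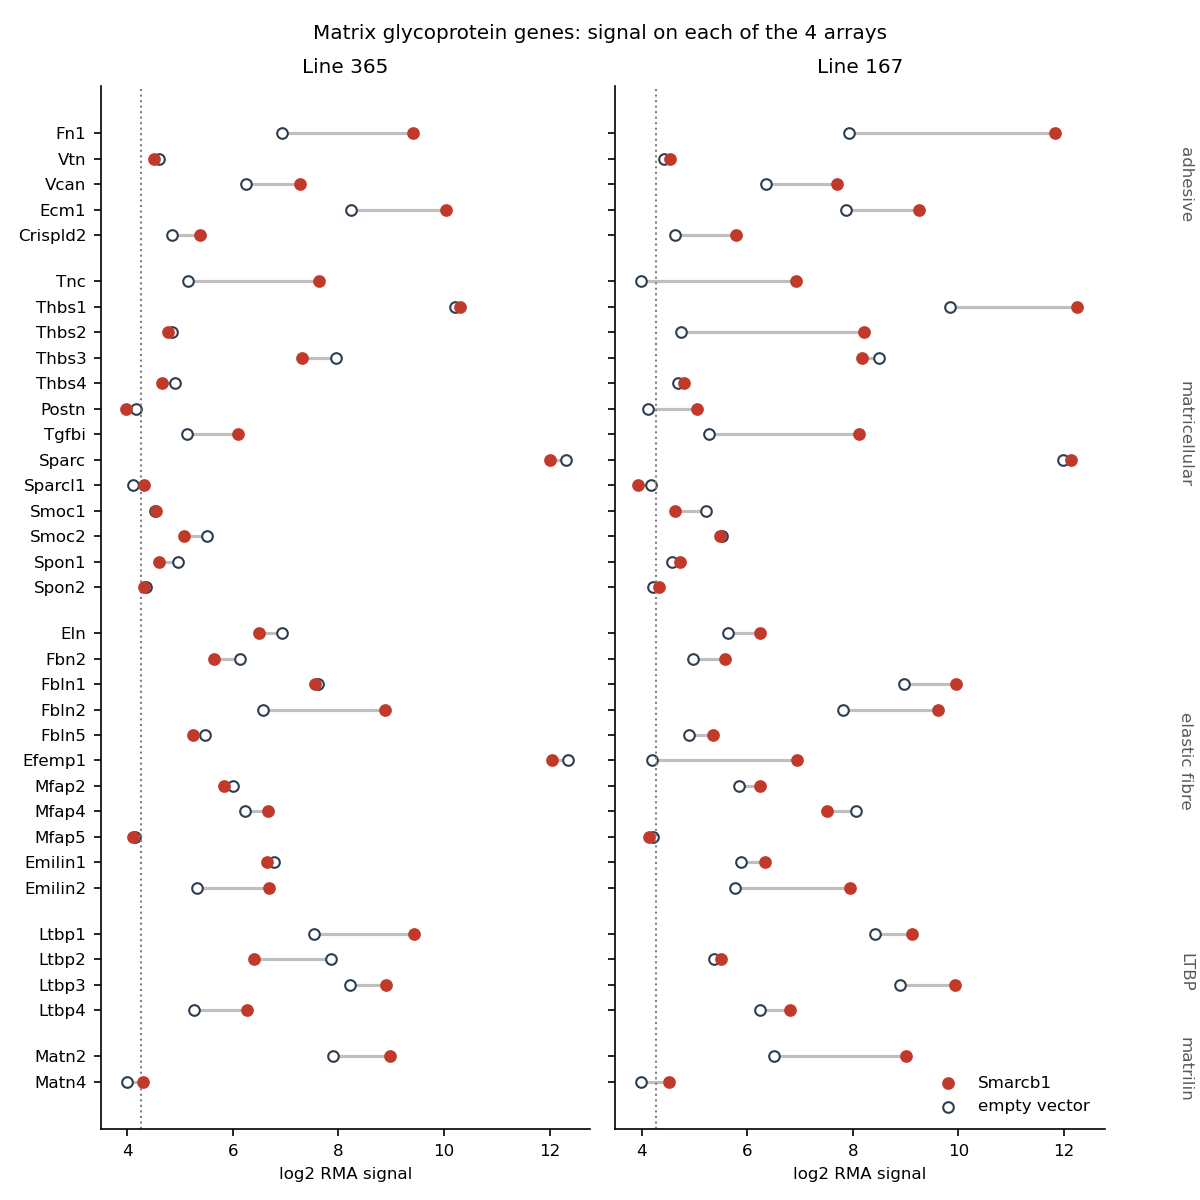
Signal (log2 RMA, horizontal axis) of the 35 measured matrix glycoprotein genes in line 365 (left) and line 167 (right), with filled red points for Smarcb1 and open points for empty vector, 1 array each. The dotted line marks the filter level of 4.27, and wide gaps between the points of Thbs1, Thbs2 and Efemp1 appear in line 167, while those of Fn1, Tnc and Fbln2 appear in both lines.

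Of the 11 measured genes of the elastic fibre and fibulin group, Fbln2 and Emilin2 were past 2-fold in both lines. Fibulin 2 links fibronectin, fibrillin and basement membrane proteins. Fbln2 was at 8.89 with Smarcb1 and 6.57 with empty vector in line 365, and at 9.60 with Smarcb1 and 7.82 with empty vector in line 167. The vectors did not overlap, and Fbln2 was 4.98-fold higher in line 365 and 3.44-fold higher in line 167. Of the 14 members past 2-fold higher in any line, 11 had the larger difference in line 167, and Fbln2 was not among those 11. The mean difference was 2.05 ± 0.20 (moderated SE, limma adjusted p = 0.0694).

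Emilin2 encodes an elastin interface glycoprotein. It was at 6.69 with Smarcb1 and 5.32 with empty vector in line 365, and at 7.94 with Smarcb1 and 5.77 with empty vector in line 167 (limma adjusted p = 0.124). Its relative Emilin1 was at 6.66 with Smarcb1 and 6.79 with empty vector in line 365, and at 6.34 with Smarcb1 and 5.88 with empty vector in line 167, with less than 2-fold between vectors in each.

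The genes of the elastic fibre core stayed within 2-fold. Eln, the elastin gene, was at 6.5 with Smarcb1 and 6.94 with empty vector in line 365, and at 6.24 with Smarcb1 and 5.63 with empty vector in line 167. Fbn2, the gene of the fibrillin of embryonic microfibrils, was at 5.64 with Smarcb1 and 6.14 with empty vector in line 365, and at 5.57 with Smarcb1 and 4.97 with empty vector in line 167. With Smarcb1 both genes were lower than with empty vector in line 365 and higher in line 167, each by less than 2-fold. Fbln5 and the microfibril-associated genes Mfap2 and Mfap4 differed by less than 2-fold in each line, and Mfap5 lay below the filter level on all 4 arrays.

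The latent TGF-beta binding proteins are fibrillin relatives, most of which hold the growth factor in the matrix. Ltbp1 was at 9.43 with Smarcb1 and 7.54 with empty vector in line 365, and at 9.12 with Smarcb1 and 8.42 with empty vector in line 167. Ltbp3 was at 8.90 with Smarcb1 and 8.22 with empty vector in line 365, and at 9.94 with Smarcb1 and 8.89 with empty vector in line 167. Ltbp4 was at 6.26 with Smarcb1 and 5.26 with empty vector in line 365, and at 6.80 with Smarcb1 and 6.24 with empty vector in line 167. All 3 were higher with Smarcb1 in both lines, and 0 passed the limma test (adjusted p from 0.181 to 0.30).

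Ltbp2 encodes a family member that binds fibrillin but not latent TGF-beta. It was at 6.41 with Smarcb1 and 7.86 with empty vector in line 365, and at 5.51 with Smarcb1 and 5.37 with empty vector in line 167. The 365 control was the highest of the 4 arrays, and this was the 1 member at least 2-fold lower in either line, with a difference of -1.46 on the log2 scale in line 365 (limma adjusted p = 0.593 over both lines).

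Matrilins are adaptor proteins that connect matrix fibrils. Matn2 was at 8.98 with Smarcb1 and 7.90 with empty vector in line 365, and at 9.0 with Smarcb1 and 6.51 with empty vector in line 167. The Smarcb1 arrays of both lines thus had nearly the same signal while their controls differed (limma adjusted p = 0.204). Matn4 did not pass the filter.

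The remaining 20 of the 35 measured members stayed within 2-fold in both lines. Their differences between vectors ran in line 365 from -0.65 for Thbs3 to 0.9995 for Ltbp4, with a median of -0.15, and in line 167 from -0.61 for Smoc1 to 0.99 for Fbln1, with a median of 0.16.

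**Figure D3:**
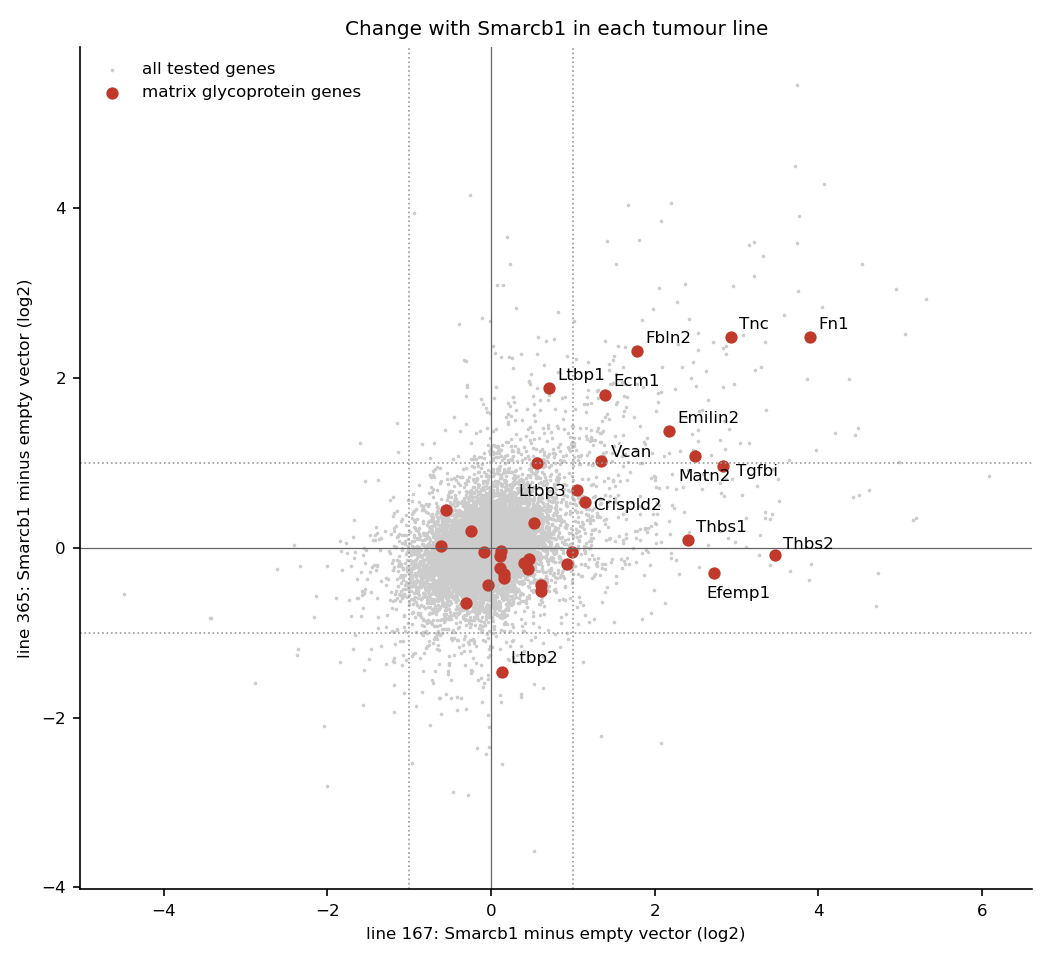
Change with Smarcb1 (Smarcb1 minus empty vector, log2) in line 167 (horizontal) and line 365 (vertical) for the 35 measured matrix glycoprotein genes (red) and all tested genes (grey), with dotted lines at a 2-fold change. The 7 genes past 2-fold in both lines, among them Fn1 and Tnc, lie at the upper right, Thbs1, Thbs2 and Efemp1 lie along the horizontal axis, and Ltbp2 lies below.

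The vector test had 1 residual degree of freedom per gene, the unequal response of the lines. In limma each gene's variance was drawn towards the trend over all tested genes, with 3.75 prior degrees of freedom. The p-values and SE mix both, come from these 4 arrays alone and measure no spread between repeat cultures. Tnc and Fbln2 passed limma's test in 4 of 7 other settings, and Fn1 and Ecm1 in 3 of 7. With the line kept in the model, limma adjusted p ranged from 0.0173 to 0.0594 for Tnc and 0.0240 to 0.0825 for Fbln2. It ranged from 0.0299 to 0.112 for Fn1 and 0.0318 to 0.103 for Ecm1. Without the line term it was 1.0 for each, and 0 of all tested genes were called.

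Line 365 differed from line 167 most at Efemp1, which was higher, and was lower at Fn1, Fbln1, Fbln2 and Ltbp3. The limma test of line 365 against line 167, over both vectors, called 1 member higher (5.31% of all tested genes) and 4 lower (5.64% of all tested genes), that is 3.12% and 12.5% of the 32 tested members. The higher share lies below the background and the lower share rests on 4 genes, so neither sets the list apart.

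Efemp1, the gene of fibulin 3, which belongs to the elastic fibre group, had by far the widest gap among the members. It was at 12.06 in line 365 and 6.93 in line 167 with Smarcb1, and at 12.35 in line 365 and 4.20 in line 167 with empty vector. The line 167 control lay below the filter level, so the 283-fold gap between the empty-vector arrays is of uncertain size. With Smarcb1 the gap was 34.8-fold. The mean line difference was 6.63 ± 0.71 on the log2 scale (moderated SE, limma adjusted p = 0.0123).

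Fbln1, the gene of fibulin 1, was lower in line 365 with both vectors. It was at 7.57 in line 365 and 9.96 in line 167 with Smarcb1, and at 7.62 in line 365 and 8.97 in line 167 with empty vector, a mean difference of -1.87 ± 0.28 (moderated SE, limma adjusted p = 0.0265). The other calls were lower in line 365 too. The mean line difference was -1.71 for Fn1 (limma adjusted p = 0.0496), -0.98 for Fbln2 (0.0474) and -0.86 for Ltbp3 (0.0412), so these 3 were lower in line 365 yet higher with Smarcb1 in both lines. Their line calls ended without the intensity trend in limma, at adjusted p = 0.0645, 0.0578 and 0.0590, over alternatives whose lowest values were 0.0250, 0.0268 and 0.0250.

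Other wide gaps did not pass in this fit. Mfap4 was at 6.67 in line 365 and 7.51 in line 167 with Smarcb1, and at 6.23 in line 365 and 8.06 in line 167 with empty vector (limma adjusted p = 0.0553 for the line), and it was called lower in 4 of 6 other settings. Ltbp2 was at 6.41 in line 365 and 5.51 in line 167 with Smarcb1, and at 7.86 in line 365 and 5.37 in line 167 with empty vector (limma adjusted p = 0.0680). Thbs1, Thbs2 and Tgfbi differed little between the lines with empty vector, by 0.37, 0.11 and -0.13 on the log2 scale, and by -1.95, -3.44 and -2.00 with Smarcb1. The gap at these genes was thus on the Smarcb1 arrays.

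Some cell type markers differed between the lines too. Of 8 mesenchymal markers, all above the filter level on every array, 1 was called higher (5.31% of all tested genes) and 3 lower (5.64%) in line 365. Their mean level was 7.27 in line 365 and 10.1 in line 167 with Smarcb1, and 7.29 in line 365 and 8.68 in line 167 with empty vector. The 3 lower were Col3a1, Pdgfrb and Col1a2, by -5.20, -4.08 and -2.14 on the log2 scale (limma adjusted p = 0.00223, 0.00348 and 0.0491). The 1 higher was S100a4, by 0.76 (limma adjusted p = 0.0341). Acta2, Col1a1, Thy1 and Vim were not called for the line, and Vim differed by only -0.10 (limma adjusted p = 0.550). The endothelial cadherin gene Cdh5 was higher in line 365, at 8.29 in line 365 and 3.64 in line 167 with Smarcb1, and at 9.06 in line 365 and 3.78 in line 167 with empty vector (limma adjusted p = 0.00296). Of the other endothelial markers, Tek and Emcn lay below the filter level on all 4 arrays, and Kdr lay between 4.33 and 4.80. Pecam1 and Tie1 lay just above the level in line 365 only, at 4.30 and 4.46 with Smarcb1 and 4.35 and 4.47 with empty vector. Kdr and Tie1 were not called for the line (limma adjusted p = 0.287 and 0.261), and Pecam1 was not tested. Of 5 tested epithelial markers 0 were called for line or vector. These arrays are of bulk RNA, so fewer cells of a type and less RNA per cell cannot be told apart, and the part of these markers in the results was not tested.

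Of the 8 mesenchymal markers, 4 were at least 2-fold higher with Smarcb1 in line 167 (3.4% of all tested genes), namely Acta2, Col1a1, Col1a2 and Thy1. In line 365 this held for 0 of 8 (2.84% of all tested genes), with 0 called by limma over both lines. The other markers, Vim, S100a4, Pdgfrb and Col3a1, differed in line 167 by -0.22, 0.26, 0.42 and 0.53 on the log2 scale. Acta2, the smooth muscle actin gene of contractile fibroblasts, was at 5.14 with Smarcb1 and 5.83 with empty vector in line 365, and at 10.81 with Smarcb1 and 6.11 with empty vector in line 167. Col1a1 was at 6.41 with Smarcb1 and 6.38 with empty vector in line 365, and at 10.56 with Smarcb1 and 7.91 with empty vector in line 167. These are values beside the Thbs1, Thbs2 and Tgfbi results, and their relation was not tested.

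Partner lists were chosen by function, with earlier results of these arrays known, so their counts describe them and are not independent support. Among all 13956 tested genes, 1.33% were at least 2-fold higher in both lines and 0.186% lower. At an unadjusted p below 0.05 in limma, 820 of them were higher and 793 lower. Each list below had a larger share higher in both lines than all tested genes, as the matrix glycoprotein genes had. Of 48 tested other matrix glycoprotein genes, 5 were at least 2-fold higher and 1 lower in both lines, with 0 called by limma in either direction (9 higher and 1 lower at an unadjusted p below 0.05). Their median difference was 0.09 in line 365 and 0.39 in line 167. Ccn3, which encodes a matricellular CCN protein, was at 7.15 with Smarcb1 and 5.25 with empty vector in line 365, and at 8.80 with Smarcb1 and 6.30 with empty vector in line 167 (limma adjusted p = 0.0821). Bmper, a secreted BMP regulator, was higher by 1.21 in line 365 and 1.38 in line 167, and Aebp1 by 1.33 and 4.44. The tenascin R gene Tnr went the other way, by -1.16 and -1.34 (limma adjusted p = 0.0946), opposite to Tnc.

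Of 20 tested receptor genes for these proteins, 3 were at least 2-fold higher in both lines and 0 lower, with 0 called by limma (8 higher and 0 lower at an unadjusted p below 0.05). The receptors' median difference was 0.28 in line 365 and 0.48 in line 167. The syndecan gene Sdc3 was at 7.89 with Smarcb1 and 5.96 with empty vector in line 365, and at 8.65 with Smarcb1 and 5.68 with empty vector in line 167 (limma adjusted p = 0.0926). The integrin genes Itga3 and Itgb3 were higher by 1.85 and 2.67 in line 365 and by 1.19 and 1.02 in line 167. The thrombospondin receptor gene Cd47 was higher by 0.45 in line 365 and 0.65 in line 167.

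Of 14 tested genes of elastic fibre cross-linking and latent TGF-beta, 2 were at least 2-fold higher in both lines, Tgm2 and Bmp1, with 0 called by limma (6 higher and 0 lower at an unadjusted p below 0.05). This list's median difference was 0.34 in line 365 and 1.04 in line 167. Tgm2, the transglutaminase that cross-links fibronectin, was at 7.27 with Smarcb1 and 5.43 with empty vector in line 365, and at 8.82 with Smarcb1 and 6.74 with empty vector in line 167 (limma adjusted p = 0.0694). Bmp1, the procollagen protease that also processes matrix proteins, was higher by 1.33 in line 365 and 1.61 in line 167. Loxl1, an elastin cross-linking oxidase, was higher by 0.81 in line 365 and 2.87 in line 167. Lox, a lysyl oxidase named after its values were seen, was at 3.85 in line 365 and 11.93 in line 167 with Smarcb1, and at 3.81 in line 365 and 10.97 in line 167 with empty vector (limma adjusted p = 0.00223 for the line), so the 365 arrays lay below the filter level and those of line 167 were high.

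Of 21 tested genes around versican and hyaluronan, 2 were at least 2-fold higher in both lines and 0 lower, with 0 called by limma (3 higher and 0 lower at an unadjusted p below 0.05). The median here was 0.0096 in line 365 and 0.34 in line 167. Has2, a hyaluronan synthase, was at 6.63 with Smarcb1 and 4.64 with empty vector in line 365, and at 8.26 with Smarcb1 and 3.88 with empty vector in line 167 (limma adjusted p = 0.177). The line 167 control of Has2 lay below the filter level, so the size of its change there is uncertain. Csgalnact1, which starts chondroitin sulphate chains, was at 6.07 with Smarcb1 and 4.41 with empty vector in line 365, and at 6.90 with Smarcb1 and 5.25 with empty vector in line 167 (limma adjusted p = 0.0846). The versican-cleaving protease gene Adamts9 was higher by 0.55 in line 365 and 3.52 in line 167.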

How the data were processed

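Each array of biotin-labelled total RNA has 1 deposited column of log2 signals per probe set, already normalized, and these were used without further scaling. The submitters' processing notes name RMA and Affymetrix Expression Console, with no version, build or annotation release. The platform annotation gave 1 symbol for 21789 of 35556 probe sets, several for 1621, and did not list 12146. Entrez identifiers of 21698 were found in RefSeq (GRCm38.p6), and 0 symbols changed. Genes were read from the probe set of highest mean.

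Genes under the 30th percentile of mean signal (4.27) were left out of the test. The fit was limma 3.58.1 in R 4.3.3 with terms for vector and cell line and an intensity trend, on all 13956 tested genes, two-sided, with Benjamini-Hochberg adjustment and a threshold of 0.05. Arrays of a line deviated together (correlation 0.770), so the line is the pairing, and it comes from the cell lines. The residual has 1 degree of freedom and the prior 3.75, and the number of arrays limits the precision. The fit was also run on simulated arrays. These had the same vector change in both lines. Their variances were drawn from a limma prior fitted without the intensity trend, unlike in the reported fit. The simulated arrays do not test the fit for unequal responses of the lines or for variances that follow intensity. All members were accounted for, and values are printed for those past 2-fold in a line, past 4-fold between lines or past the test, with Smarcb1 and up to 6 partner genes per list by smallest vector p. Values of other members (Vtn, Thbs3, Thbs4, Postn, Sparc, Emilin1, Eln, Fbn2, Mfap4 and Ltbp4) and of Lox were added after they had been seen. Members and lists were chosen with earlier results of these data known. Alternatives were other filters, normalizations, probe set means, no trend, no line term and a fold limit of 1.5. Promoter windows are from RefSeq on GRCm38.p6.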

Additional observations from a re-analysis of the deposited data

Results flagged for a closer look

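In 7 members the change with Smarcb1 had opposite signs in the lines and differed between them by at least 2-fold. The difference was not tested, since each line has 1 array per vector. The change in line 365 minus that in line 167 was -3.55 for Thbs2, -3.02 for Efemp1, -1.60 for Ltbp2, -1.12 for Postn, -1.11 for Fbn2, -1.05 for Eln and -1.04 for Fbln1 on the log2 scale. With Smarcb1 all 7 were lower than with empty vector in line 365 and higher in line 167. The medians of the tested members (-0.04 and 0.66) include these genes, so they are no separate support for that direction. Genes meeting this rule were not counted over all genes, so the 7 have no background share. Over all 35 measured members 18 had opposite signs of any size (51.4%), against 42.4% of all measured genes. The changes of Thbs2 in line 365 (-0.09) and of Fbln1 (-0.05) were close to 0. Postn lay below the filter level on 3 arrays.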

How the results depend on the processing

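Without the replicate block by cell line 0 members were called higher with Smarcb1, and likewise without the intensity trend and with the mean of all probe sets. Dropping the low-signal filter called 4 members (0.321% of all genes then tested), raising it to the 50th percentile 4 (0.913%), repeating quantile normalization 4 (0.459%) and cyclic loess 2 (0.201%). The 4 were Fn1, Tnc, Fbln2 and Ecm1, and the 2 were Tnc and Fbln2. Members called lower stayed at 0 in each of the 7 alternatives. Higher in line 365 were 3 members under the stricter filter (9.59% of all genes then tested) and 3 under repeated quantile normalization (6.86%), namely Efemp1, Tnc and Ltbp2. Lower in it was 1 without the intensity trend (Fbln1, 4.57%), and 5, with Mfap4 gained, without the filter (4.4%), under the stricter filter (9.86%), repeated quantile normalization (7.19%) and cyclic loess (6.53%). At a 1.5-fold limit, 11 of 32 members were higher and 2 lower in line 365 (6.49% and 4.75% of all tested genes), and 18 were higher and 1 lower in line 167 (6.93% and 7.8%). Leaving out 1 line gave the other line's change: from -0.0858 to 3.47 for Thbs2, -0.051 to 0.99 for Fbln1, -0.29 to 2.73 for Efemp1 and -1.46 to 0.14 for Ltbp2. The line difference turned round with empty vector alone for Thbs1 (0.37), Thbs2 (0.11) and Crispld2 (0.21), and with Smarcb1 alone for Ltbp1 (0.31) and Matn2 (-0.0201). The cause of these changes was not tested. The medians of the tested members kept their sign under all 4 alternatives run for them. Signal near the filter level limits the size of the Tnc, Efemp1 and Postn changes.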
